A study of Homo sapiens with 3 samples.

Results

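Signalling from unfolded proteins in the endoplasmic reticulum (ER), known as the unfolded protein response, was followed through 10 genes, chosen by name from a table of 58333 genes: HSPA5, HSP90B1, DNAJB9, HERPUD1, XBP1, SDF2L1, PDIA4, ATF6, ERN1 and EDEM1. Each symbol matched 1 gene of the table, and the 10 genes passed the filter on low values, as did 20858 genes in all. Expression was measured in Cal62, a human thyroid tumor cell line, after transfection of a non-targeting siRNA (siControl) or of either of 2 siRNAs against ADAR1 (siADAR1 #1 and siADAR1 #2), the enzyme that converts adenosine to inosine in double-stranded RNA. Each transfection has 2 libraries of poly(A)+ RNA, given as 2 independent biological replicates, so that 6 libraries of 1 cell line were compared and both siRNAs were set against the same siControl libraries. No ER stressor was among these treatments, and how long after transfection these cells were harvested is not given in the sources used here. The labels name no further treatment, and no library of untransfected cells was analysed here.

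When unfolded proteins accumulate in the ER, HSPA5 (BiP) is drawn away from the sensors ERN1 (IRE1α), ATF6 and EIF2AK3 (PERK), which start separate branches of the response. Active ATF6 and the spliced form of XBP1 made by ERN1 switch on genes for chaperones, protein disulfide isomerases and ER-associated degradation, whereas PERK phosphorylates eIF2α and favours translation of ATF4, the activator of CHOP (DDIT3) and of amino acid synthesis and transport genes. In the thyroid the ER folds the very large hormone precursor thyroglobulin.

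ER stress-responsive promoters carry the ER stress response element, ERSE, written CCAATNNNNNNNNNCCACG, or the shorter ERSE-II, written ATTGGNCCACG. Both were searched on both strands in RefSeq promoter windows (GRCh38.p14) that run from 250 bases before to 50 bases after the start site, and each of the 10 genes had a window. ERSE was in the windows of HSPA5, HSP90B1 and XBP1, against 0.0806% of 27305 promoters, and ERSE-II in those of HERPUD1 and SDF2L1, against 0.0549%. The CCACG core, which is part of both motifs, was in 8 of the 10 windows, and the windows of ATF6 and ERN1 lacked it. It was in 37.9% of all promoters and in 48.0% of the 12785 promoters of tested genes. Neither the unfolded protein response element core TGACGTGG nor TGATGNAAT, a form of the ATF4 site, was in a window of the 10 genes. They were in 0.795% and 1.02% of all promoters, so that absence from 10 windows tells little. Forms of the ATF4 site with another last base were not searched. The HERPUD1 sequence below has, on the opposite strand, a stretch that differs from TGATGNAAT in the last base alone. A match describes the letters only, not binding. The sequences below show the upstream bases of the genes with a whole element, and of DNAJB9, whose window has the core alone, up to the first annotated base. They are given 5′ to 3′ on the strand of the gene, and capitals mark every match, spacer included.
HERPUD1, chr16:56931892-56932141, + strand: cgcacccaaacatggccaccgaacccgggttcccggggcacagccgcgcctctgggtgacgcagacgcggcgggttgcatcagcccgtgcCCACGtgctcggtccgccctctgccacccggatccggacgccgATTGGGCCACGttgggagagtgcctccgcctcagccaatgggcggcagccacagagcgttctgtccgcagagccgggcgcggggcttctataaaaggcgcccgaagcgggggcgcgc
SDF2L1, chr22:21642052-21642301, + strand: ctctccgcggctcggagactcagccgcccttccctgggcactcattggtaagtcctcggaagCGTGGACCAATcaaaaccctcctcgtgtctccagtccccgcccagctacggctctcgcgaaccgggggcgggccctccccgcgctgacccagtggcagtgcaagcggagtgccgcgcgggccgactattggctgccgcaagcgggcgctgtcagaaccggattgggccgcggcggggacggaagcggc
HSPA5, chr9:125241383-125241593, - strand: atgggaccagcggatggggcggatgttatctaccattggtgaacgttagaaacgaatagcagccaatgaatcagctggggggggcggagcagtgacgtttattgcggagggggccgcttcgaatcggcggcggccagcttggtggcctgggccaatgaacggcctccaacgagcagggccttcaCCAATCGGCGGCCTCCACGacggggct
XBP1, chr22:28800598-28800819, - strand: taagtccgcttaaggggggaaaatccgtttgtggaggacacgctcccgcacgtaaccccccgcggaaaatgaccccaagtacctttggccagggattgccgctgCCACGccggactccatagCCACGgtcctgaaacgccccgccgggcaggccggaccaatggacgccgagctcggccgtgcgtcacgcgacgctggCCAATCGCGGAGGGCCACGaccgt
DNAJB9, chr7:108569624-108569866, + strand: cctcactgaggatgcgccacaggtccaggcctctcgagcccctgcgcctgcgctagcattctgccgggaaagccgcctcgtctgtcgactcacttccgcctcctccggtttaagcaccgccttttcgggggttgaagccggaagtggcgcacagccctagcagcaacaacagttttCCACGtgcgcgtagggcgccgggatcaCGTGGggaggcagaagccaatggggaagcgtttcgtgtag
For HSP90B1 only its 2 elements are shown, since GENCODE places transcript starts further upstream, the first on the strand of the gene at chr12:103930216-103930234 and the second on the opposite strand at chr12:103930321-103930339.
HSP90B1, first element: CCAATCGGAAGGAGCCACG
HSP90B1, second element: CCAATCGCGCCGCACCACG
The ERSE of HSPA5 began 66 bases and that of XBP1 52 bases before the RefSeq start site, while the ERSE-II of HERPUD1 began 117 bases and that of SDF2L1, on the opposite strand, 188 bases before it.

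**Figure D1:**
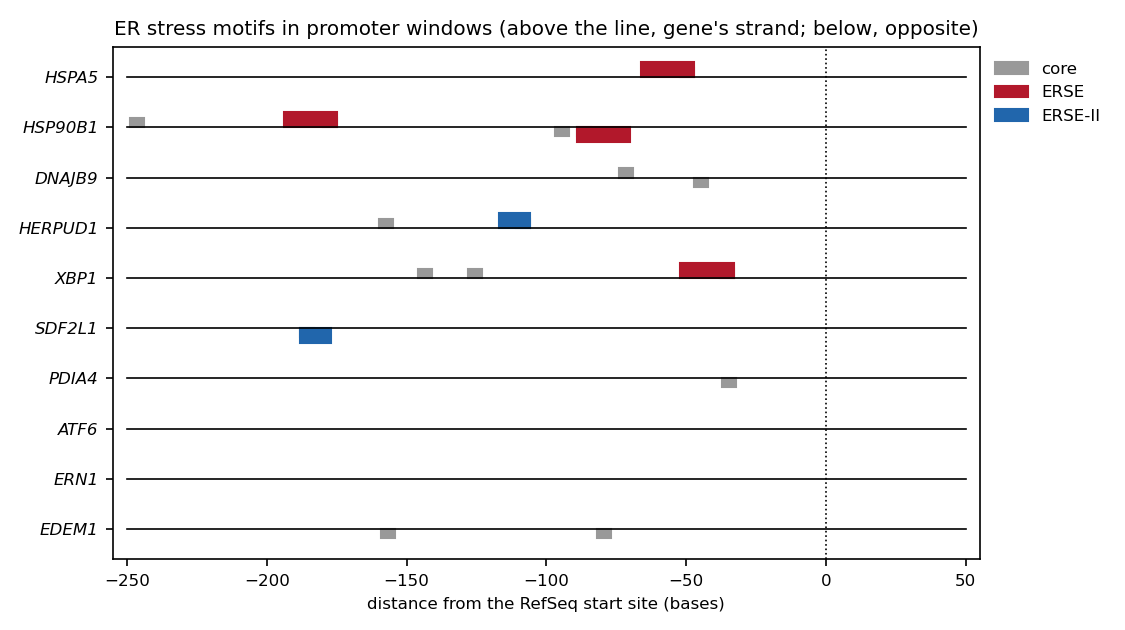
Matches of ERSE (red), ERSE-II (blue) and the CCACG core (grey) in the promoter window of each gene, by distance in bases from the RefSeq start site (dotted line). Boxes above a line are on the strand of the gene and boxes below it on the opposite strand. HSP90B1 has 2 ERSE matches, and the lines of ATF6 and ERN1 have no box.

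The libraries held 30114840 to 50029763 reads on genes, and 3 reads corresponded to 2.81 to 4.39 normalised counts (reads divided by the size factor of a library). The fewest reads behind a value of the 10 genes were 170, for ERN1 in siADAR1 #2 replicate 2. ADAR, the targeted gene, was at 10906 and 11701 normalised counts in the siControl libraries, 1328 and 2246 with siADAR1 #1 and 1663 and 2928 with siADAR1 #2. It was thus at 15.8% and 20.3% of the siControl mean with siADAR1 #1 and siADAR1 #2, and within each siRNA replicate 2 kept more ADAR than replicate 1. Of 9 thyroid follicular genes, PAX8, HHEX, TSHR and FOXE1 were measured in each library, whereas the transcription factor NKX2-1 had 0 reads in every library, the iodide transporter SLC5A5 between 5 and 15 reads and thyroglobulin, TG, between 0 and 55 reads. The summed level of the 9 genes was 16298 and 18152 normalised counts in the siControl libraries, 12869.6 and 17818 with siADAR1 #1 and 4701 and 7486 with siADAR1 #2, where PAX8 fell by 1.99 on the log2 scale (adjusted p = 0.00354). FOXE1 also fell with siADAR1 #2 by 1.21 on the log2 scale (adjusted p = 0.0239), a call lost without siControl replicate 1 or siADAR1 #2 replicate 2 (adjusted p up to 0.156). Of 7 genes of other cell types, the T cell gene CD3E was at 0 reads in every library and the pan-leukocyte gene PTPRC at up to 5 reads. Their summed level was 77.3 and 67.3 normalised counts with siControl, 158.0 and 158.3 with siADAR1 #1 and 55.6 and 57.1 with siADAR1 #2. Most of the siADAR1 #1 value was CD14, a monocyte gene at 119 and 113 normalised counts there and 44.6 and 34.7 with siControl (adjusted p = 0.0170), whose call was lost without either siControl library or without siADAR1 #1 replicate 1 (adjusted p up to 0.0951). The part of these marker differences in the results below was not tested.

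Across the 10 genes the change was uneven: HERPUD1 and PDIA4 rose with both siRNAs, DNAJB9 rose with siADAR1 #1 alone among the 2 comparisons with siControl, and the abundant chaperones HSPA5 and HSP90B1 passed the test with neither. A gene was called when its adjusted p (limma, Benjamini-Hochberg over 20858 genes) was below 0.05 and its log2 fold change (log2FC, on the deposited variance-stabilised log2 scale) was beyond 0.5 in either direction. With siADAR1 #1, 3 of the 10 rose and 0 fell, beside 6.18% and 10.6% of all genes tested. With siADAR1 #2, 2 of the 10 rose and 0 fell, beside 11.1% and 15.5% of all genes tested. The 0 falling calls stood beside 1 gene, EDEM1 with siADAR1 #1, that was lower at an unadjusted p under 0.05, and 0 fell when whole reads were fitted with voom instead. The median log2FC of the 10 genes was 0.12 with siADAR1 #1 and 0.12 with siADAR1 #2, beside -0.024 and -0.014 over all genes. The medians of the 10 moved with single libraries. With siADAR1 #1 the median was 0.25 and -0.018 on leaving out siControl replicate 1 or 2, and 0.20 and 0.027 on leaving out replicate 1 or 2 of the siRNA. With siADAR1 #2 it was 0.28 and 0.058 on leaving out siControl replicate 1 or 2, and 0.0044 and 0.31 on leaving out replicate 1 or 2 of the siRNA. Median centring gave 0.26 with siADAR1 #1, and quantile normalization 0.23 and 0.34. Both libraries lay above both siControl libraries for 4 of the 10 genes with siADAR1 #1 and 4 with siADAR1 #2, beside 28.4% and 32.3% of all genes, and below for 2 and 0, beside 32.8% and 35.0%. In the average of both siRNAs 2 rose and 0 fell, beside 6.04% and 11.1%, with a median of 0.16 against -0.026. Leaving out either siControl library left 0 calls among the 10 genes with siADAR1 #1 and 1, HERPUD1, with siADAR1 #2. In bulk RNA, more transcript in each cell cannot be told apart from more cells that express the gene.

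**Figure D2:**
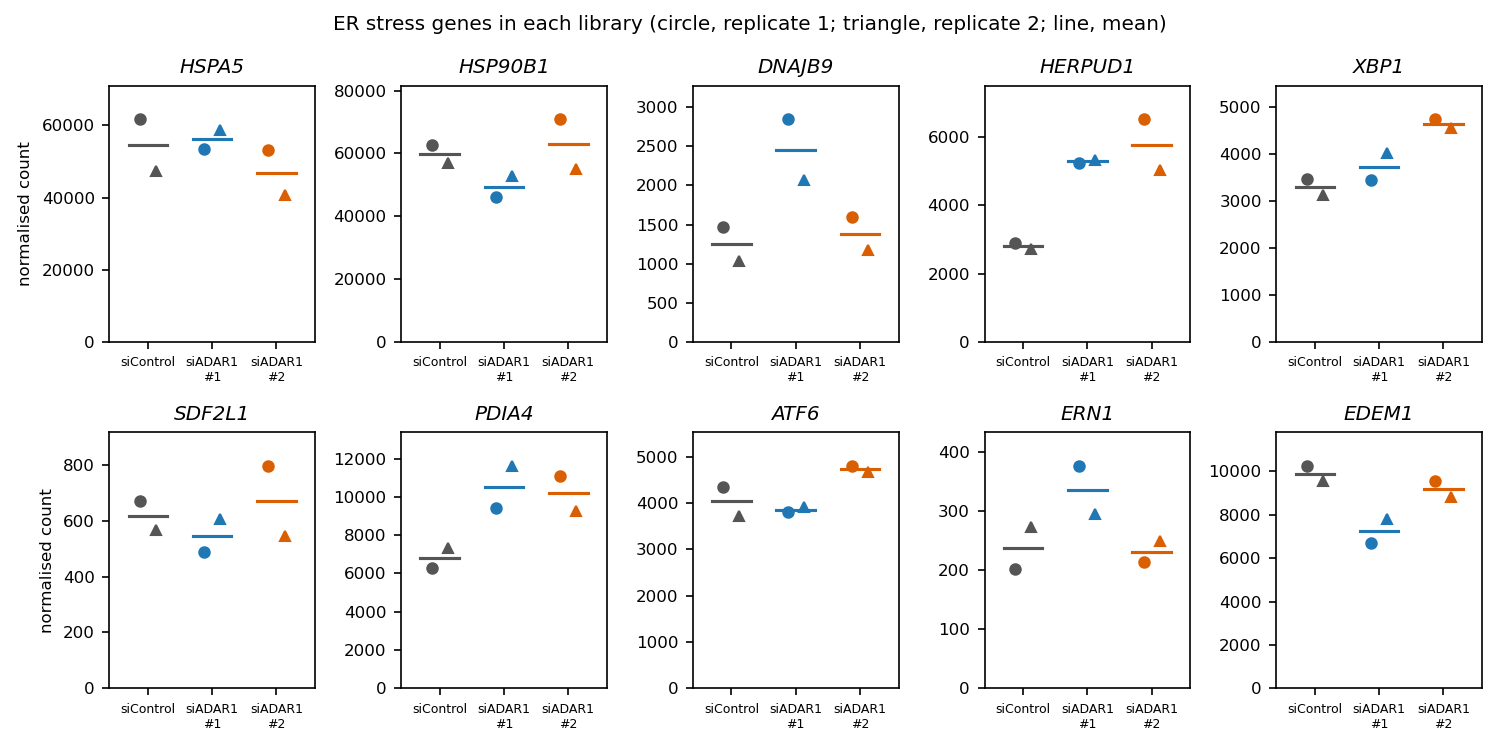
Normalised count of each of the 10 genes in each of the 6 libraries, with an axis from 0 for each gene; circles are replicate 1, triangles replicate 2 and lines the group mean of 2 libraries. For HERPUD1 and PDIA4 the 4 siADAR1 libraries lie above both siControl libraries, and for DNAJB9 only those of siADAR1 #1 do.

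Chaperones of the ER lumen were among the most abundant transcripts of the 10. HSPA5, the Hsp70 chaperone that binds nascent and unfolded chains, was at 61697 and 47446 normalised counts in the siControl libraries, 53498 and 58799 with siADAR1 #1 and 53079.8 and 40624 with siADAR1 #2. The groups overlapped with each siRNA, and replicate 1 of siControl was the highest of the 6 libraries. Its log2FC was 0.052 (SE 0.170, 95% confidence interval -0.34 to 0.45, adjusted p = 0.867) with siADAR1 #1 and -0.22 (SE 0.170, 95% confidence interval -0.61 to 0.17, adjusted p = 0.379) with siADAR1 #2, so that these data do not separate either from no change. HSP90B1 (GRP94), the Hsp90 of the ER, was at 62595 and 56879.9 normalised counts in the siControl libraries, 46084 and 52799.5 with siADAR1 #1 and 70875 and 54913 with siADAR1 #2. Both siADAR1 #1 libraries were below both siControl libraries, whereas those of siADAR1 #2 lay on either side of them. Neither difference passed the test, with a log2FC of -0.27 (SE 0.147, 95% confidence interval -0.61 to 0.065, adjusted p = 0.240) and of 0.064 (SE 0.147, 95% confidence interval -0.28 to 0.40, adjusted p = 0.786) respectively. The HSP90B1 locus overlaps UQCC6 and TTC41P on the other strand, and the strand setting of the counting is not given in the sources used here.

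DNAJB9 (ERdj4), a J-domain cochaperone that returns HSPA5 to ERN1, was at 1471 and 1034 normalised counts in the siControl libraries, 2846 and 2069 with siADAR1 #1 and 1593 and 1170.3 with siADAR1 #2. The siADAR1 #1 libraries were both above every other library, and those of siADAR1 #2 interleaved with siControl. DNAJB9 rose 1.96-fold with siADAR1 #1, from a mean of 1253 ± 309 to 2457 ± 549 (SD, n = 2 libraries each), with a log2FC of 0.97 (SE 0.237, 95% confidence interval 0.43 to 1.52, adjusted p = 0.0271). With siADAR1 #2 its log2FC was 0.15 (SE 0.237, 95% confidence interval -0.40 to 0.69, adjusted p = 0.691). The call with siADAR1 #1 was lost without siControl replicate 1 (adjusted p = 0.0690), siControl replicate 2 (adjusted p = 0.162) or siADAR1 #1 replicate 1 (adjusted p = 0.144), and its adjusted p ran from 0.00207 to 0.162 over 17 alternative settings. In the average of both siRNAs DNAJB9 was at 0.56 (SE 0.205, 95% confidence interval 0.086 to 1.04, adjusted p = 0.0936), and it was called there with the replicate number as a block (adjusted p = 0.00767, the lowest of 0.00767 to 0.550 over the alternatives). SDF2L1, a partner of ER J-domain proteins, was at 669 and 567 normalised counts in the siControl libraries, 488 and 605 with siADAR1 #1 and 796 and 545 with siADAR1 #2. Its groups overlapped in each comparison, and its log2FC was -0.18 (SE 0.223, 95% confidence interval -0.69 to 0.34, adjusted p = 0.631) with siADAR1 #1 and 0.10 (SE 0.223, 95% confidence interval -0.42 to 0.61, adjusted p = 0.787) with siADAR1 #2.

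PDIA4 (ERp72), a protein disulfide isomerase, was at 6299 and 7339.7 normalised counts in the siControl libraries, 9399 and 11621 with siADAR1 #1 and 11110.4 and 9254 with siADAR1 #2. Each of the 4 siADAR1 libraries was above both siControl libraries. PDIA4 rose 1.54-fold with siADAR1 #1 (log2FC 0.62, SE 0.152, 95% confidence interval 0.27 to 0.97, adjusted p = 0.0276) and 1.49-fold with siADAR1 #2 (log2FC 0.58, SE 0.152, 95% confidence interval 0.23 to 0.93, adjusted p = 0.0240), from a siControl mean of 6819 ± 736 to 10509.9 ± 1571 and 10182 ± 1312 (SD, n = 2 libraries each). The siADAR1 #1 call was lost without siControl replicate 1, siControl replicate 2 or siADAR1 #1 replicate 2 (adjusted p = 0.160, 0.0739 and 0.103). For siADAR1 #2 it was lost without either siControl library or without siADAR1 #2 replicate 1 (adjusted p = 0.144, 0.0506 and 0.154). Over the 17 alternatives the adjusted p of PDIA4 ran from 0.0148 to 0.160 and from 0.0146 to 0.154 respectively.

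HERPUD1 and EDEM1 act in ER-associated degradation, and of these HERPUD1 was called. HERPUD1, a membrane protein that scaffolds the HRD1 ubiquitin ligase complex and carries ERSE-II in the sequence shown above, was at 2898 and 2707 normalised counts in the siControl libraries, 5248 and 5337 with siADAR1 #1 and 6516 and 5039 with siADAR1 #2. All siADAR1 libraries were well above siControl, with no overlap. HERPUD1 rose 1.89-fold with siADAR1 #1 (log2FC 0.92, SE 0.141, 95% confidence interval 0.59 to 1.24, adjusted p = 0.00632) and 2.06-fold with siADAR1 #2 (log2FC 1.03, SE 0.141, 95% confidence interval 0.71 to 1.36, adjusted p = 0.00165), from 2802 ± 135 to 5293 ± 63.1 and 5777 ± 1044 (SD, n = 2 libraries each). With siADAR1 #2 it was called in 17 of 17 alternative settings, whereas with siADAR1 #1 the call was lost without siControl replicate 1 (adjusted p = 0.0558) or replicate 2 (adjusted p = 0.0504). It was also lost in empirical Bayes without a trend (adjusted p = 0.0503). Over the alternatives its adjusted p ran from 0.000722 to 0.0209 with siADAR1 #2 and from 0.00286 to 0.0558 with siADAR1 #1. EDEM1, a lectin that hands misfolded glycoproteins to degradation, was at 10255 and 9536 normalised counts in the siControl libraries, 6686 and 7788 with siADAR1 #1 and 9564 and 8819 with siADAR1 #2. Only with siADAR1 #1 were both libraries below both siControl libraries. Its log2FC there, -0.45 (SE 0.119, 95% confidence interval -0.73 to -0.18, adjusted p = 0.0351), passed the p threshold and missed the size threshold, and it was called without siADAR1 #1 replicate 2 (log2FC -0.56, adjusted p = 0.0306, within a range of 0.0248 to 0.183 over the alternatives). With siADAR1 #2 the log2FC of EDEM1 was -0.11 (SE 0.119, 95% confidence interval -0.38 to 0.17, adjusted p = 0.553). Having all 4 siADAR1 libraries above both siControl libraries was shared by HERPUD1 and PDIA4 among the 10 genes and by 12.0% of all genes tested, and having all 4 below by 0 of the 10 and 16.6% of all genes.

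Among sensors and transcription factors, none passed both thresholds. ATF6, the membrane-tethered transcription factor, was at 4359 and 3734 normalised counts in the siControl libraries, 3809 and 3912 with siADAR1 #1 and 4807 and 4676 with siADAR1 #2. Only the siADAR1 #2 libraries were both above siControl, with a log2FC of 0.23 (SE 0.119, 95% confidence interval -0.042 to 0.51, adjusted p = 0.184), against -0.064 (SE 0.119, 95% confidence interval -0.34 to 0.21, adjusted p = 0.758) with siADAR1 #1. ERN1, the kinase and endoribonuclease that splices XBP1 mRNA, was the least abundant, at 201 and 273 normalised counts in the siControl libraries, 377 and 295 with siADAR1 #1 and 214 and 249 with siADAR1 #2. Both siADAR1 #1 libraries were above both siControl libraries, the nearer by a small margin, and the siADAR1 #2 libraries lay between those of siControl. The log2FC of ERN1 was 0.50 (SE 0.235, 95% confidence interval -0.042 to 1.05, adjusted p = 0.185) with siADAR1 #1 and -0.023 (SE 0.235, 95% confidence interval -0.57 to 0.52, adjusted p = 0.956) with siADAR1 #2. XBP1, the transcription factor activated by that splicing, was at 3464 and 3118 normalised counts in the siControl libraries, 3449 and 4011 with siADAR1 #1 and 4734 and 4541 with siADAR1 #2. Its siADAR1 #2 libraries were the highest of the 6, and its siADAR1 #1 libraries overlapped siControl. With siADAR1 #2 its log2FC of 0.496 (SE 0.125, 95% confidence interval 0.21 to 0.78, adjusted p = 0.0202) lay just under the size threshold, which it passed after median centring, quantile normalization or recomputed size factors, and with siADAR1 #1 it was 0.18 (SE 0.125, 95% confidence interval -0.11 to 0.47, adjusted p = 0.370). The table holds 1 value for each gene, so spliced and unspliced XBP1 were not separated, and neither cleavage of ATF6 nor activation of ERN1 was measured.

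**Figure D3:**
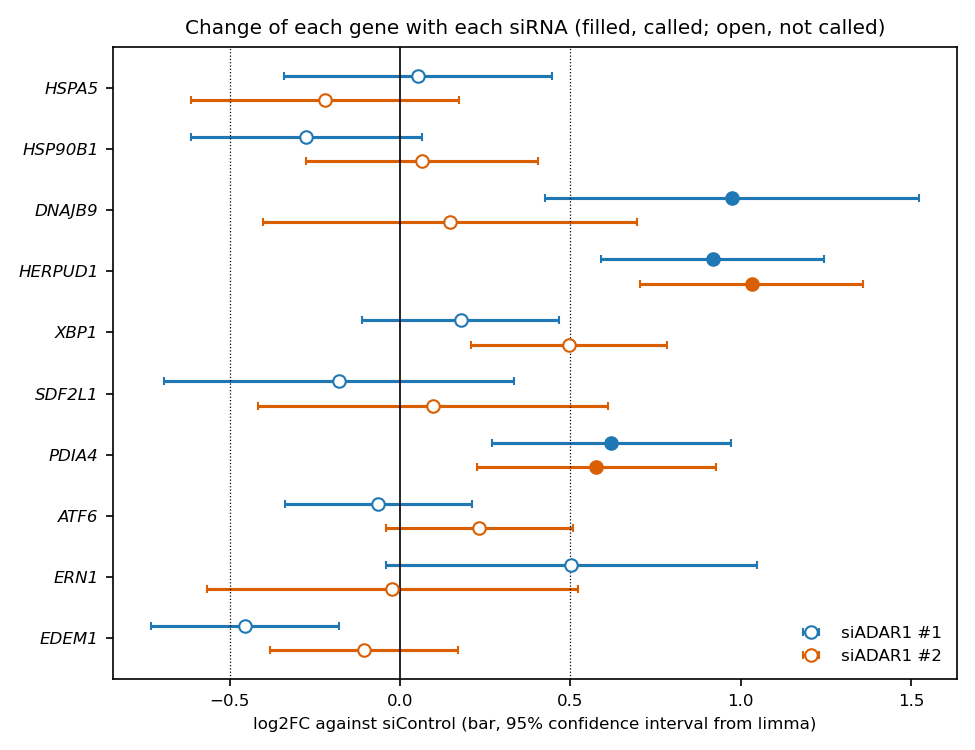
The log2FC against siControl of each gene with siADAR1 #1 (blue) and siADAR1 #2 (orange); bars are 95% confidence intervals from limma, filled points were called and dotted lines mark the size threshold of 0.5 in either direction. Filled points are HERPUD1 and PDIA4 for both siRNAs and DNAJB9 for siADAR1 #1.

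The siRNAs were also compared with each other. The log2FC of this comparison does not use the siControl libraries, but its SE and adjusted p rest on a spread estimated over all 6 libraries. DNAJB9 was lower with siADAR1 #2 than with siADAR1 #1 (log2FC -0.83, SE 0.237, 95% confidence interval -1.38 to -0.28, adjusted p = 0.0276) and was the 1 call among the 10 genes, with 0 higher and 1 lower beside 16.7% and 16.1% of all genes tested. This call was lost without siADAR1 #1 replicate 1 or siADAR1 #2 replicate 2 (adjusted p = 0.141 and 0.140, within a range of 0.00128 to 0.141 over the alternatives). The groups also did not overlap for HSPA5 and ERN1, lower with siADAR1 #2, nor for HSP90B1, XBP1, ATF6 and EDEM1, higher with siADAR1 #2, but none of these passed the test. With DNAJB9, 3 of the 10 genes were thus separated downward and 4 upward, beside 34.9% and 34.4% of all genes tested. Their log2FC, siADAR1 #2 minus siADAR1 #1, was -0.27 for HSPA5, -0.53 for ERN1, 0.34 for HSP90B1, 0.32 for XBP1, 0.30 for ATF6 and 0.35 for EDEM1, with an adjusted p between 0.0529 for EDEM1 and 0.254 for HSPA5. For the 2 genes that rose with both siRNAs the difference was small and its interval spanned 0, at 0.11 (SE 0.141, 95% confidence interval -0.21 to 0.44, adjusted p = 0.575) for HERPUD1 and -0.044 (SE 0.152, 95% confidence interval -0.39 to 0.31, adjusted p = 0.851) for PDIA4. SDF2L1 was at 0.28 (SE 0.223, 95% confidence interval -0.24 to 0.79, adjusted p = 0.379). The 10 genes had a median of 0.20 in this comparison, beside 0.0022 over all genes. Without replicate 1 of siADAR1 #2 the median of the 10 turned to -0.034, and it was 0.31 without the other library of that siRNA, 0.11 without siADAR1 #1 replicate 1 and 0.066 after median centring.

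In the average of both siRNAs against siControl, HERPUD1 rose (log2FC 0.97, SE 0.122, 95% confidence interval 0.69 to 1.26, adjusted p = 0.00319), as did PDIA4 (log2FC 0.60, SE 0.131, 95% confidence interval 0.29 to 0.90, adjusted p = 0.0170). HERPUD1 was called there in 15 and PDIA4 in 13 of 17 alternatives, both being lost without siControl replicate 1 (adjusted p = 0.0539 and 0.152) and PDIA4 also without siControl replicate 2 (adjusted p = 0.0591). With the siADAR1 libraries as 1 group the calls of HERPUD1 and PDIA4 were also lost, and that of PDIA4 was lost in empirical Bayes without a trend. Over the alternatives the limma adjusted p was at most 0.124 for HERPUD1 and 0.205 for PDIA4. XBP1 had 0.34 (adjusted p = 0.0627) and EDEM1 -0.28 (adjusted p = 0.0948), neither called. The log2FC was -0.084 for HSPA5, -0.11 for HSP90B1, -0.041 for SDF2L1, 0.084 for ATF6 and 0.24 for ERN1, with an adjusted p between 0.454 for ERN1 and 0.907 for SDF2L1.

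Per kilobase of union exon length (GENCODE 44), the siControl levels of the 10 genes spanned from 8357 normalised counts per kb for HSPA5 to 12.4 for ERN1. HSPA5 ranked 166 of 20710 genes on this scale and ERN1 ranked 16015. Below HSPA5 came HSP90B1 at 4563, PDIA4 at 2068, EDEM1 at 1469 and XBP1 at 1087 normalised counts per kb, whose library ranges did not overlap with their neighbours. SDF2L1 (536 to 631), HERPUD1 (535 to 572) and DNAJB9 (408 to 579.7) followed, with ranges that overlapped, so their order is not set by 2 libraries. ATF6 was at 284. With siADAR1 #1, HERPUD1 reached 1046 and DNAJB9 968 normalised counts per kb, both above SDF2L1 at 516, and the HERPUD1 range of 1037 to 1054 lay within that of EDEM1 at 992 to 1156. With siADAR1 #2, XBP1 at 1499.6 to 1563 was above EDEM1 at 1309 to 1419.6. The union of all annotated exons can be longer than any single transcript, which lowers the level per kb by an amount that differs between genes. ERN1 had 19153 exonic bases from 10 annotated transcripts, HSP90B1 13092 from 35 and HSPA5 6530 from 15. Before division by length, the siControl mean of HSP90B1 (59738 normalised counts) was above that of HSPA5 (54572), so their order depends on the length used.

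**Figure D4:**
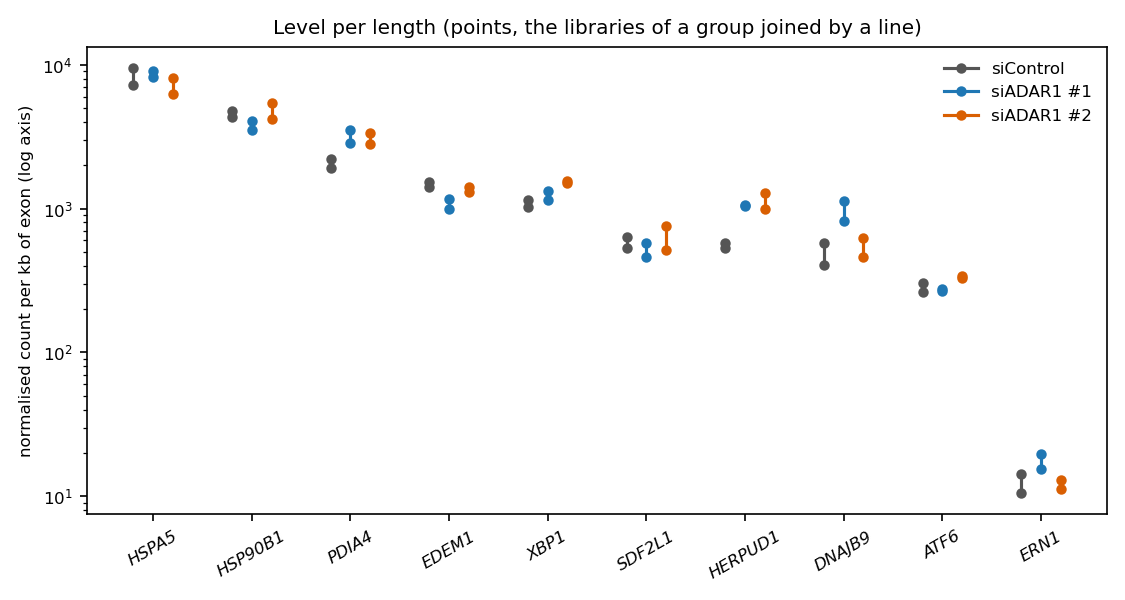
Level of each gene in normalised counts per kb of union exon length (log axis), with the 2 libraries of each group joined by a line and genes in the order of their siControl mean. HSPA5 is highest and ERN1 lowest in each group, while HERPUD1 and DNAJB9 move from about the level of SDF2L1 to above it with siADAR1 #1, and HERPUD1 also with siADAR1 #2.

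The genes lie on several chromosomes of GRCh38. HSPA5 is at chr9:125234853-125241382, HERPUD1 at chr16:56932142-56944864, PDIA4 at chr7:149003062-149028662 and DNAJB9 at chr7:108569867-108574850. HSP90B1 is at chr12:103930107-103953931, SDF2L1 at chr22:21642302-21644299, XBP1 at chr22:28794555-28800597 and EDEM1 at chr3:5187646-5219958, and the sensors ATF6 and ERN1 are at chr1:161766298-161977574 and chr17:64039080-64130819. Each value is 1 count for the whole gene. HERPUD1 and ATF6 overlap unnamed genes on their own strand, and ERN1 and EDEM1 unnamed genes on the other strand, so some of their reads could be shared with these.

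The remaining sensors and signalling genes included the PERK branch. Of 17 such genes, 6 rose and 1 fell with siADAR1 #1 (median log2FC 0.29), and 3 rose and 1 fell with siADAR1 #2 (median 0.15), beside 6.18% and 11.1% of all genes that rose and 10.6% and 15.5% that fell. The 6 that rose with siADAR1 #1 became 1 without either siControl library or in empirical Bayes without a trend. DDIT3, which encodes CHOP, was at 741 and 659.9 normalised counts in the siControl libraries, 1206 and 1457 with siADAR1 #1 and 1941 and 2287 with siADAR1 #2. PPP1R15A, the stress-induced eIF2α phosphatase subunit GADD34, was at 3721 and 3979 normalised counts in the siControl libraries, 5562 and 6963 with siADAR1 #1 and 9778 and 9194 with siADAR1 #2. Both had every siADAR1 library above siControl. DDIT3 rose with both siRNAs (log2FC 0.92, SE 0.159, adjusted p = 0.00898, then 1.59, SE 0.159, adjusted p = 0.000537), as did PPP1R15A (log2FC 0.69, SE 0.133, adjusted p = 0.0126, then 1.30, SE 0.133, adjusted p = 0.000576). PPP1R15B, the constitutive phosphatase subunit, rose with siADAR1 #1 and fell with siADAR1 #2 (log2FC 0.69 with siADAR1 #1, adjusted p = 0.0177, and -0.99 with siADAR1 #2, adjusted p = 0.00228). MBTPS1, the protease that cleaves ATF6, rose with siADAR1 #1 (log2FC 0.74, SE 0.101, adjusted p = 0.00444) and stood at 0.47 with siADAR1 #2, under the size threshold. The kinase itself, EIF2AK3, rose with siADAR1 #2 (log2FC 0.55, SE 0.136, adjusted p = 0.0189) and was at -0.0051 with siADAR1 #1, and ATF4 rose with siADAR1 #1 (log2FC 0.55, SE 0.115, adjusted p = 0.0164) and was at 0.15 with siADAR1 #2. ATF6B was the 1 gene that fell with siADAR1 #1 (log2FC -0.79, SE 0.138, adjusted p = 0.00946) and was at 0.43 with siADAR1 #2. The list had 0 falling calls with siADAR1 #1 in empirical Bayes without a trend. EIF2AK3 and ATF4 were named for their role and ATF6B as the gene that fell, each after its values were seen. Without siControl replicate 1 or 2, the siADAR1 #1 calls of DDIT3, PPP1R15A, PPP1R15B and ATF4 were lost (adjusted p up to 0.0655, 0.0902, 0.104 and 0.0878 over the alternatives). PPP1R15B also lost it without siADAR1 #1 replicate 1 and ATF4 without either siADAR1 #1 library, and EIF2AK3 lost its siADAR1 #2 call without siControl replicate 2 or siADAR1 #2 replicate 1 (adjusted p up to 0.131).

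Most genes listed as targets of PERK and ATF4 rose. Of 13, 9 rose and 1 fell with siADAR1 #1 (median log2FC 1.21) and 8 rose and 1 fell with siADAR1 #2 (median 1.05), beside the shares of all genes given above. Both comparisons share the siControl libraries. The list was chosen with earlier results of these data known. It holds TRIB3, CHAC1 and DDIT4, for which the paper lists qPCR primers, so the share that rose is not independent of these data. Neither activation of PERK nor phosphorylation of eIF2α was measured, and whether PERK acted on these genes was not tested. STC2, a secreted glycoprotein, had a log2FC of 1.74 and 1.86, and SLC7A11, the cystine transporter, of 1.20 and 1.70 with siADAR1 #1 and #2. For the pseudokinase TRIB3 the values were 1.36 and 1.35, and for ASNS, asparagine synthetase, 1.55 and 1.47. These 4 were called with both siRNAs in 17 of 17 alternatives, and over the alternatives 9 to 10 of the 13 rose with siADAR1 #1 and 7 to 10 with siADAR1 #2. CEBPB fell with siADAR1 #1 (-0.98, SE 0.276, adjusted p = 0.0439) and ATF5 with siADAR1 #2 (-1.42, SE 0.186, adjusted p = 0.00137). The call of CEBPB was lost on leaving out any 1 library other than siADAR1 #1 replicate 2 (adjusted p up to 0.228), and that of ATF5 was kept in 17 of 17 alternatives. Both are transcription factors of the stress response and were named after their values were seen.

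Of 30 other ER folding and disulfide factors, 1 rose and 1 fell with siADAR1 #1 (median log2FC -0.012), and 6 rose and 3 fell with siADAR1 #2 (median 0.084), beside the shares of all genes given above. The 6 that rose became 0 without siControl replicate 1, without siADAR1 #2 replicate 1 or in empirical Bayes without a trend, 1 without siControl replicate 2 and 3 without siADAR1 #2 replicate 2. UGGT1, the glucosyltransferase that checks glycoprotein folding, fell with both siRNAs (log2FC -0.87 with siADAR1 #1, adjusted p = 0.00803, and -0.87 with siADAR1 #2, adjusted p = 0.00364). PPIB, a prolyl isomerase, fell with siADAR1 #2 (log2FC -1.43, SE 0.105, adjusted p = 0.000284) as did the disulfide isomerase PDIA6 (log2FC -0.70, SE 0.125, adjusted p = 0.00494), while the chaperone-like ERP29 rose (log2FC 0.52, SE 0.113, adjusted p = 0.0112). Without siControl replicate 1 the siADAR1 #1 call of UGGT1 was lost (adjusted p up to 0.0693), and that of ERP29 was lost on leaving out any 1 of the siControl or siADAR1 #2 libraries (adjusted p up to 0.0675).

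Of 26 further ER-associated degradation genes, 3 rose and 4 fell with siADAR1 #1 (median log2FC 0.033) and 2 rose and 4 fell with siADAR1 #2 (median 0.074), beside 6.18% and 10.6%, then 11.1% and 15.5%, of all genes. With siADAR1 #1 these became 1 and 0 without siControl replicate 1, and 1 and 1 without siControl replicate 2, without siADAR1 #1 replicate 1 or in empirical Bayes without a trend. With siADAR1 #2 the 4 that fell became 1 without siControl replicate 1 or either siADAR1 #2 library and 2 without siControl replicate 2 or the trend, and the 2 that rose became 4 without siADAR1 #2 replicate 2. DERL3, a component of the channel that returns proteins from the ER to the cytosol, fell with both siRNAs (log2FC -2.08 with siADAR1 #1, adjusted p = 0.00962, and -1.16 with siADAR1 #2, adjusted p = 0.0463) and was the 1 gene of the list called in the same direction with both. The first call of DERL3 was lost without either siControl library (adjusted p up to 0.0774) and the second on leaving out any 1 of the siControl or siADAR1 #2 libraries (adjusted p up to 0.225), and DERL3 was named after its values were seen. FAM8A1, a cofactor of the HRD1 complex, rose with siADAR1 #2 (log2FC 1.70, SE 0.169, adjusted p = 0.000533) and was at 0.44 with siADAR1 #1. MAN1B1, the ER mannosidase, went opposite ways (log2FC -0.78 with siADAR1 #1, adjusted p = 0.0108, and 0.89 with siADAR1 #2, adjusted p = 0.00316), and its fall with siADAR1 #1 was not called without siControl replicate 1 or siADAR1 #1 replicate 1 (adjusted p up to 0.0880). NPLOC4, a cofactor of the p97 ATPase, fell with siADAR1 #2 (log2FC -0.73, SE 0.124, adjusted p = 0.00383), and FAF2, which recruits p97 to the ER membrane, rose with siADAR1 #1 (log2FC 0.86, SE 0.124, adjusted p = 0.00516).

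Translocation and N-glycosylation genes numbered 31, of which 2 rose and 1 fell with siADAR1 #1 (median log2FC 0.030) and 6 rose and 2 fell with siADAR1 #2 (median 0.085), beside 6.18% and 10.6%, then 11.1% and 15.5%, of all genes. The 6 that rose became 1 without siADAR1 #2 replicate 1 and 3 without siControl replicate 2, and with siADAR1 #1 the counts became 1 and 0 without siControl replicate 1 or the trend. SEC62, of the translocon, rose with both siRNAs (log2FC 0.89 with siADAR1 #1, adjusted p = 0.00320, and 0.71 with siADAR1 #2, adjusted p = 0.00199). SRPRA, the signal recognition particle receptor subunit, rose with siADAR1 #1 and fell with siADAR1 #2 (log2FC 0.73 with siADAR1 #1, adjusted p = 0.00706, and -0.77 with siADAR1 #2, adjusted p = 0.00230), and lost the first call without siControl replicate 1 (adjusted p up to 0.0558). With siADAR1 #2, SRP72 of the signal recognition particle fell (log2FC -1.16, SE 0.104, adjusted p = 0.000408) and the signal peptidase subunit SPCS3 rose (log2FC 0.58, SE 0.109, adjusted p = 0.00588), a call lost without siADAR1 #2 replicate 1 (adjusted p = 0.0502). Among 19 export and retrieval genes, 4 rose and 0 fell with siADAR1 #1 (median 0.19) and 1 rose and 3 fell with siADAR1 #2 (median 0.12). These counts stood beside the same shares of all genes. The 4 that rose became 0 without siControl replicate 1, 1 in empirical Bayes without a trend, and 2 without siControl replicate 2 or siADAR1 #1 replicate 1. The COPII coat gene SEC23B rose with both (log2FC 0.59 with siADAR1 #1, adjusted p = 0.0184, and 1.09 with siADAR1 #2, adjusted p = 0.000908), the first call being lost on leaving out any 1 of the siControl or siADAR1 #1 libraries (adjusted p up to 0.101). KDELR3, a receptor that returns chaperones to the ER, rose with siADAR1 #1 (log2FC 0.87, SE 0.134, adjusted p = 0.00635), though not without siControl replicate 1 (adjusted p = 0.0616), and the cargo receptors TMED10 and SURF4 fell with siADAR1 #2 (log2FC -0.72, SE 0.104, adjusted p = 0.00208, and -0.77, SE 0.132, adjusted p = 0.00416).

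**Figure D5:**
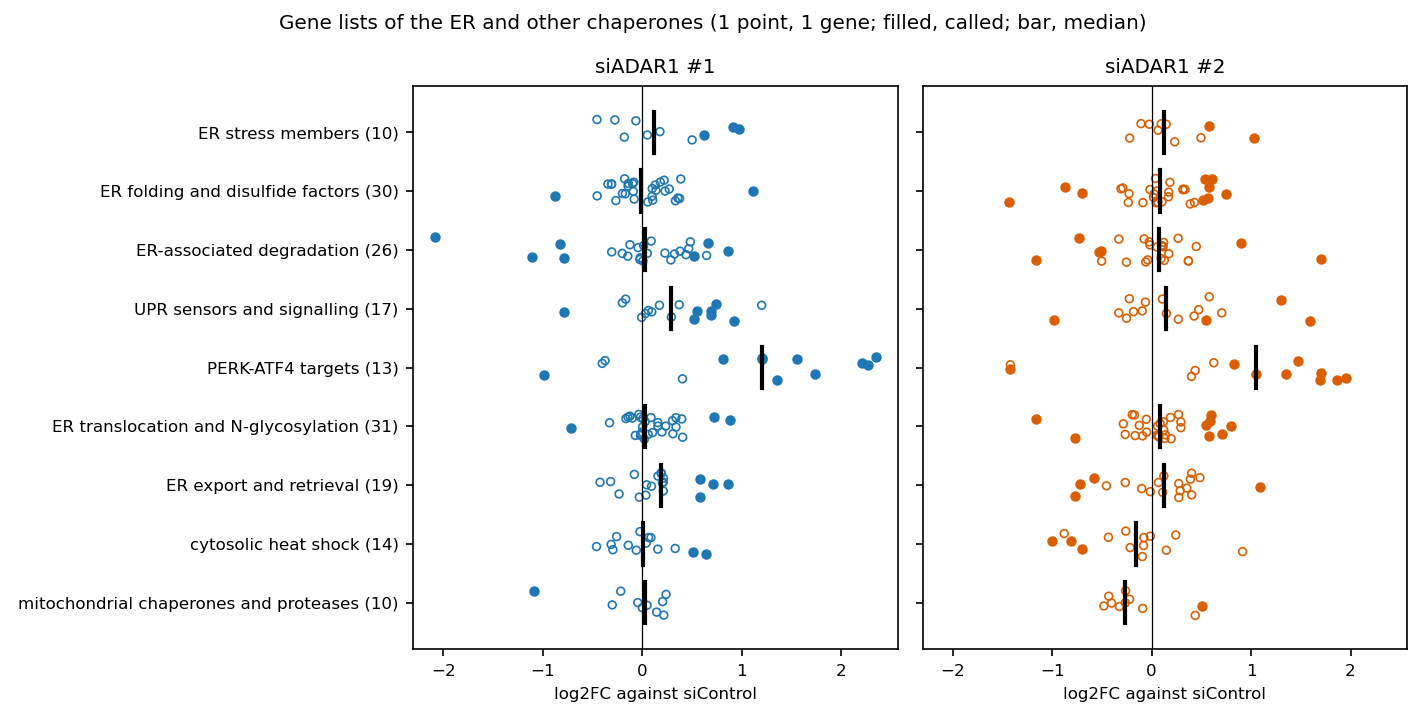
The log2FC against siControl of each tested gene of the 10 ER stress genes and of 8 other lists (number of genes in parentheses), for siADAR1 #1 on the left and siADAR1 #2 on the right; filled points were called and black bars are medians. The medians of the PERK-ATF4 targets, 1.21 and 1.05, stand to the right of 1, and those of the other lists between -0.26 and 0.29.

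Chaperones outside the ER were taken for comparison. Of 14 tested cytosolic heat shock genes, 2 rose and 0 fell with siADAR1 #1 (median log2FC 0.0087), beside 6.18% and 10.6% of all genes. For siADAR1 #2, 0 rose and 3 fell (median -0.15), beside 11.1% and 15.5%. The 2 that rose became 0 without siADAR1 #1 replicate 1 or in empirical Bayes without a trend, and 1 without siControl replicate 1 or siADAR1 #1 replicate 2. HSP90AA1, the inducible cytosolic Hsp90, rose with siADAR1 #1 (log2FC 0.64, SE 0.109, adjusted p = 0.00877), a call lost without siADAR1 #1 replicate 1 and after quantile normalization (adjusted p up to 0.143). The J-domain protein DNAJB1, the Hsp70 HSPA8 and the small heat shock protein HSPB1 fell with siADAR1 #2 (log2FC -1.01, SE 0.138, adjusted p = 0.00166, then -0.70, SE 0.134, adjusted p = 0.00672, then -0.81, SE 0.166, adjusted p = 0.00872), HSPA8 not after quantile normalization (log2FC -0.24) and HSPB1 not without siControl replicate 1 or siADAR1 #2 replicate 1 (adjusted p up to 0.0679). Of 10 mitochondrial chaperones and proteases, 0 rose and 1 fell with siADAR1 #1 and 1 rose and 0 fell with siADAR1 #2, with medians of 0.026 and -0.26. These counts stood beside the same shares of all genes. The Hsp90 paralog TRAP1 fell with siADAR1 #1 (log2FC -1.08, SE 0.161, adjusted p = 0.00564), though not without siControl replicate 1 (adjusted p = 0.0616). The protease LONP1 rose with siADAR1 #2 (log2FC 0.51, SE 0.140, adjusted p = 0.0283), a call lost on leaving out any 1 of the siControl or siADAR1 #2 libraries (adjusted p up to 0.145).

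Among the tested genes, 15 had an ERSE in their RefSeq promoter window, HSPA5, HSP90B1 and XBP1 included. With siADAR1 #1, 1 of the 15 rose and 0 fell (median log2FC -0.016), beside 6.18% and 10.6% of all genes tested. For siADAR1 #2, 2 rose and 1 fell (median 0.13), beside 11.1% and 15.5%. These shares, also used for ERSE-II below, cover all 20858 genes tested, whereas only 12785 promoters of tested genes were searched. Genes without a promoter window could not be counted as carrying either element, so the compared sets are not alike. Shares of calls among genes with a window alone are not given here. The 15 also held the lectin chaperones CALR and CANX, at -0.45 and 0.27 with siADAR1 #1 and 0.17 and 0.32 with siADAR1 #2, none of them called. ERSE-II was in the windows of 11 tested genes, HERPUD1 and SDF2L1 included. Of the 11, 3 rose and 2 fell with siADAR1 #1 (median 0.18), beside the same shares of all genes. For siADAR1 #2, 4 rose and 1 fell (median 0.31). HERPUD1 rose in both comparisons and SDF2L1 passed in neither. Whether either element bears on these changes was not tested.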

How the data were processed

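Poly(A)+ RNA of Cal62 cells was sequenced with 75-bp paired-end reads by the authors, who ran bcbio-nextgen to trim adapters, to count reads per known gene by featureCounts and to estimate transcript abundance by Salmon (GRCh38, per the submitters' processing notes). Gene counts were then normalised, with a stated preference for Salmon-based estimates, and the table does not tell which counts it holds, so a whole read here may be a rounded estimate. The deposited log2 values are variance-stabilised: the authors divided whole reads by size factors and transformed them, since the exact inverse of the transform gave whole reads for 100% of values within 0.1 read in every library. These normalised counts (reads over size factor) are printed as levels. Differences, log2FC, SE and p were fitted on the deposited log2 values with limma 3.58.1 in R 4.3.3 (3 groups, 6 libraries, empirical Bayes with a trend, Benjamini-Hochberg adjustment), because a count model is not the main test for log2 values. Genes with a mean value of at least log2 of 10 (7.62 normalised counts) were tested, 20858 of 58333. Of the table, 503 genes had no symbol. The test was checked on simulated data.

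The labels name 1 sample per transfection but 2 columns of values stand for each, taken as the 2 biological replicates of the paper's methods, so p-values measure the spread between these libraries. Replicate numbers were checked for pairing: the differences between replicates 2 and 1 correlated at r = 0.106, 0.110 and 0.162 across genes for the 3 pairs of groups, and a fit with the replicate number as a block was run as an alternative. Other alternatives were the filter, the scaling, the empirical Bayes settings, voom on the recovered reads, log2 of normalised counts plus 1 and leaving out each library. The 10 genes, the other lists and the motifs were chosen with earlier results of these data known, and named genes of a list are the up to 4 called ones with the smallest adjusted p. Exon lengths and positions came from GENCODE 44, and promoter sequences from RefSeq. Figures were drawn with matplotlib 3.10.9.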

Additional observations from a re-analysis of the deposited data

Results flagged for a closer look

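The effect of the siRNAs on DNAJB9 differed between them: its log2FC was 0.97 with siADAR1 #1 and 0.15 with siADAR1 #2, a difference of -0.83 (SE 0.237, limma adjusted p = 0.0276, siADAR1 #2 minus siADAR1 #1). Both siADAR1 #1 libraries were above both siADAR1 #2 libraries. The difference was called in 13 of 17 alternative settings and ranged from -1.06 to -0.60. Within each siRNA, replicate 1 was the higher library for DNAJB9 and had less ADAR left than replicate 2, an order that the siControl libraries also had (DNAJB9 at 1471 and 1034 and ADAR at 10906 and 11701 normalised counts), and whether the remaining ADAR bears on DNAJB9 was not tested.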

How the results depend on the processing

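With 1 library left out, calls among the 10 genes ranged from 0 to 3 with siADAR1 #1, from 1 to 2 with siADAR1 #2, from 0 to 1 between the siRNAs and from 0 to 2 in their average. Over all genes they ranged from 392 to 3680, from 3150 to 5758, from 4810 to 6360 and from 143 to 3976, against 3502, 5541, 6838 and 3585. The other alternatives kept the counts of the 10 genes within 1.5 times, except that no filter on low values gave 1 with siADAR1 #1 and 0 between the siRNAs, quantile normalization 2 between the siRNAs (HSP90B1 added, log2FC 0.56, adjusted p = 0.0175), and empirical Bayes without a trend 0, 1, 0 and 1, HERPUD1 being the call left in each case with 1. Without the trend 1347 genes were called with siADAR1 #1 and 1911 in the average. With the siADAR1 libraries as 1 group, limma called 0 of all genes and 0 of the 10, with 2916 genes at an unadjusted p under 0.05. The cause of these moves was not tested. Leaving out a library also leaves fewer libraries in the fit, and more genes were tested without the filter.

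The replicate numbers paired the libraries weakly, and the replicate block gave 3, 2, 1 and 3 calls among the 10 genes, DNAJB9 in the average (log2FC 0.56, adjusted p = 0.00767) being the 1 call it changed. Median centring moved the median log2FC of all genes with siADAR1 #1 from -0.024 to 0.12 and the share of calls that rose from 36.8% to 53.3%, between the siRNAs from 51.0% to 40.0% with a median of -0.13, and in the average from 35.1% to 44.3%. Quantile normalization gave 47.7% with siADAR1 #1 and 45.8% in the average.

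No called log2FC of the 10 genes changed sign. Of 680 recomputed values of the 10 genes, 617 kept their direction and side of the thresholds, 27 lost a call, 6 gained one and 30 turned sign. After median centring these were ATF6 with siADAR1 #1 (0.081), HERPUD1 between the siRNAs (-0.014) and SDF2L1 in the average (0.040). After quantile normalization they were SDF2L1 with siADAR1 #1 (0.0091), HSPA5 and EDEM1 with siADAR1 #2 (0.0054 and 0.016), PDIA4 between the siRNAs (0.038) and HSPA5, HSP90B1 and SDF2L1 in the average (0.11, 0.13 and 0.10). Without 1 library, sign turned within these ranges. With siADAR1 #1 these were HSPA5 (-0.14 to 0.24) and ATF6 (-0.18 to 0.048). With siADAR1 #2 they were HSP90B1 (-0.12 to 0.25), DNAJB9 (-0.11 to 0.40), SDF2L1 (-0.18 to 0.37) and ERN1 (-0.24 to 0.20). Between the siRNAs they were HERPUD1 (-0.071 to 0.30) and PDIA4 (-0.20 to 0.11), and in the average HSPA5 (-0.27 to 0.11), SDF2L1 (-0.18 to 0.10) and ATF6 (-0.027 to 0.20). Where 1 library stood alone in its group, it was assumed to vary like the others. The fewest reads behind a value of the 10 genes were 170.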

Other observations

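Outside the 10 genes, 4 genes with an ERSE in their promoter window were called with either siRNA against siControl. ERO1B, an oxidase that keeps disulfide isomerases active, rose with siADAR1 #1 (log2FC 1.12, adjusted p = 0.0145) and was at -0.23 with siADAR1 #2. The call of ERO1B was lost without either siControl library or without siADAR1 #1 replicate 1 (adjusted p up to 0.0926). With siADAR1 #2, SERP1, a translocon-associated protein, and FICD, which modifies HSPA5, rose (log2FC 0.61, adjusted p = 0.0166, and 0.61, adjusted p = 0.0472), while EIF2A, a translation initiation factor, fell (-0.62, adjusted p = 0.00429). The call of SERP1 was lost without siControl replicate 2 or siADAR1 #2 replicate 1 (adjusted p up to 0.121), that of FICD without any 1 library other than siControl replicate 1 (adjusted p up to 0.225) and that of EIF2A after quantile normalization, by size alone. CALR was called between the siRNAs alone, higher with siADAR1 #2 (log2FC 0.62, adjusted p = 0.0130), though not after median centring, in empirical Bayes without a trend or without replicate 1 of either siRNA (adjusted p up to 0.0989). These genes were named after their values were seen.

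The 5 tested genes whose log2 values followed those of HSPA5 most closely over the 6 libraries were PSMD6 (Pearson r = 0.992), GNB1 (0.986), ERF (0.985), GPRACR (0.976) and DDX5 (0.971). They were picked as the highest of 20857 correlations over 6 points that share groups and size factors, so the values describe these libraries only. None of the 5 belongs to the ER lists, and none of the other 9 genes was among them.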
